A study of Mus musculus with 8 samples.

Results

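Transcripts of the B cell receptor and of the B lineage were followed in splenic stromal cells that had been cultured with B cells. The 10 genes were *Mzb1*, *Cd79a*, *Cd79b*, *Fcmr*, *Fcrla*, *Cd52*, *Blk*, *Blnk*, *Cd22* and *Cd37*, and they were picked with the comparison of leukemic and control co-cultures already known, so that comparison is given for them as a description, with no test. Every probe whose annotated gene symbol was one of these names was taken, which gave 19 of the 25697 probes on the array. A probe counted as detected on an array when its detection p was below 0.05. The stroma on all 8 arrays was mSSC-YFP, a cell line immortalized from mouse spleen late in embryonic life and used at passage 2 to 6, so every array came from the same line. It was kept for 40 to 48 h with 20 B cells per stromal cell and then sorted away from the lymphocytes before RNA extraction. In the 4 control co-cultures the B cells came from the spleen of adult C57BL6/N mice matched in age to the leukemic donors, and in the 4 leukemic co-cultures from the spleen of adult *Eμ-TCL1* mice with advanced leukemia. The *Eμ-TCL1* transgene drives human TCL1 from an immunoglobulin promoter and enhancer, in B cells, and models chronic lymphocytic leukemia. No array of stroma kept without B cells was analysed here, and the number of animals behind each group was not given in the labels.

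The B cell receptor is a membrane immunoglobulin held in a complex with the CD79A and CD79B chains, whose cytoplasmic tails carry the signal inward. Antigen binding lets kinases of the Src family such as BLK phosphorylate these tails, adaptors such as BLNK then connect the receptor to downstream enzymes, and CD22 restrains the signal. Cells of the B lineage make these proteins, and stromal cells of the spleen are not known for them.

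The arrays were alike in their general quality. Between 13504 and 13938 probes were detected on each, the median signal lay between 67.2 and 90.2, and leukemic replicate 4 correlated less well with the others (r 0.955 to 0.970) than they did among themselves (r of 0.984 or more). Of 28 probes for stromal markers, 26 or 27 were detected on every array, although *Tlx1* was detected on none and *Fn1* had no probe under that name. Summed over these probes, the stromal marker level was 201540 to 211480 on the control arrays, 201550 to 229140 on leukemic replicates 1 to 3 and 263990 on leukemic replicate 4.

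Promoter sequence was on hand for 6 of the 10 genes, *Cd79a*, *Fcmr*, *Fcrla*, *Blnk*, *Cd22* and *Cd37*. The promoters of *Cd79a*, *Blnk* and *Cd22* are shown because between them they hold each of the motifs searched for, which are letters recognized by factors that act in B cells. The sequences are the 250 bases before the transcript start as given by RefSeq for build GRCm38.p6, read 5′ to 3′ on the strand of the gene, at chr7:24897247-24897496 (plus strand) for *Cd79a*, chr19:40994222-40994471 (minus strand) for *Blnk* and chr7:30879029-30879278 (minus strand) for *Cd22*. Capitals mark the motif matches.
Cd79a: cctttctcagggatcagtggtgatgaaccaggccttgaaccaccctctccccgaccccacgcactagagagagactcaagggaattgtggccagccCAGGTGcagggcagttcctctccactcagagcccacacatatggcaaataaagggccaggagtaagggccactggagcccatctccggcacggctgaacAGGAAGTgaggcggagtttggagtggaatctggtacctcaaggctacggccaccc
Blnk: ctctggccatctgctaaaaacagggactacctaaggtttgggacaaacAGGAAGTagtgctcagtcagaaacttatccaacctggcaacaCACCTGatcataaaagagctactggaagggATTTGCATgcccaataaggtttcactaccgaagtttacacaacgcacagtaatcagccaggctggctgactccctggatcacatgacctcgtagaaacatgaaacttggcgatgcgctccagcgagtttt
Cd22: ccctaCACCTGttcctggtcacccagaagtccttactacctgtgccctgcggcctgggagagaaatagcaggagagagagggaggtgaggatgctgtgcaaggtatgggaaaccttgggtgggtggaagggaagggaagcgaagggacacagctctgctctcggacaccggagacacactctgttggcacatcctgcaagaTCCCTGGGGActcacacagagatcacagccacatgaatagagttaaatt

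Both strands were searched for the octamer ATGCAAAT of the Oct factors, the E-box CAGGTG, the ETS motif AGGAAGT and the palindromic Ebf1 motif, a TCCC and a GGGA parted by NN, and these motifs were chosen with the genes known. The E-box was found in 5 of the 6 promoters, all but that of *Fcmr*, and in 17.2% of 32817 mouse promoters of the same length. The ETS motif lay in the promoters of *Cd79a*, *Blnk* and *Cd37* and in 7.69% of all promoters. In *Cd79a* the match ran from 55 to 49 bases before the start, and in *Cd37* from 25 to 19. The octamer was found in *Blnk* alone, in reverse orientation at 130 to 123 bases before the start, and in 1.6% of all promoters. The Ebf1 motif was found in *Cd22* alone, at 49 to 40 bases before the start, and in 0.78% of all promoters. The stretch of *Cd22* lies within the full span of its gene, chr7:30865404-30880342, and so precedes an inner transcript start. The same holds for *Fcrla* and *Cd37*. A match is a run of letters and not a measured binding site.

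The members fell into 6 genes that were measured on most arrays and 4 that were close to background. *Mzb1*, *Cd79a*, *Cd79b*, *Fcmr*, *Fcrla* and *Cd52* had a probe detected on at least 4 of the 8 arrays and were carried into the comparison of the groups, within a table of 9971 features. *Blk*, *Blnk*, *Cd22* and *Cd37* did not reach that number. *Blk* came closest, with detection on 3 arrays, whereas the brightest *Fcrla* probe, the least often detected of the 6, was seen on 7.

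Detection of the 19 probes differed by array. The control arrays detected 6, 6, 9 and 7 of them, and the leukemic arrays 8, 10, 10 and 16, so the ranges overlapped and leukemic replicate 4 stood highest. Counted by gene, 6 of the 10 were detected on each control array, and 6, 8, 8 and 10 on leukemic replicates 1 to 4. Of the 19 probes, 8 (42.1%) were detected on at least 1 leukemic array and on no control array, where this held for 2.3% of all probes. Of the same 19 probes, 5 (26.3%) were detected on leukemic replicate 4 and nowhere else, against 1.21% of all probes. The genes had been chosen for a difference between these groups, and nothing is read from these shares.

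**Figure D1:**
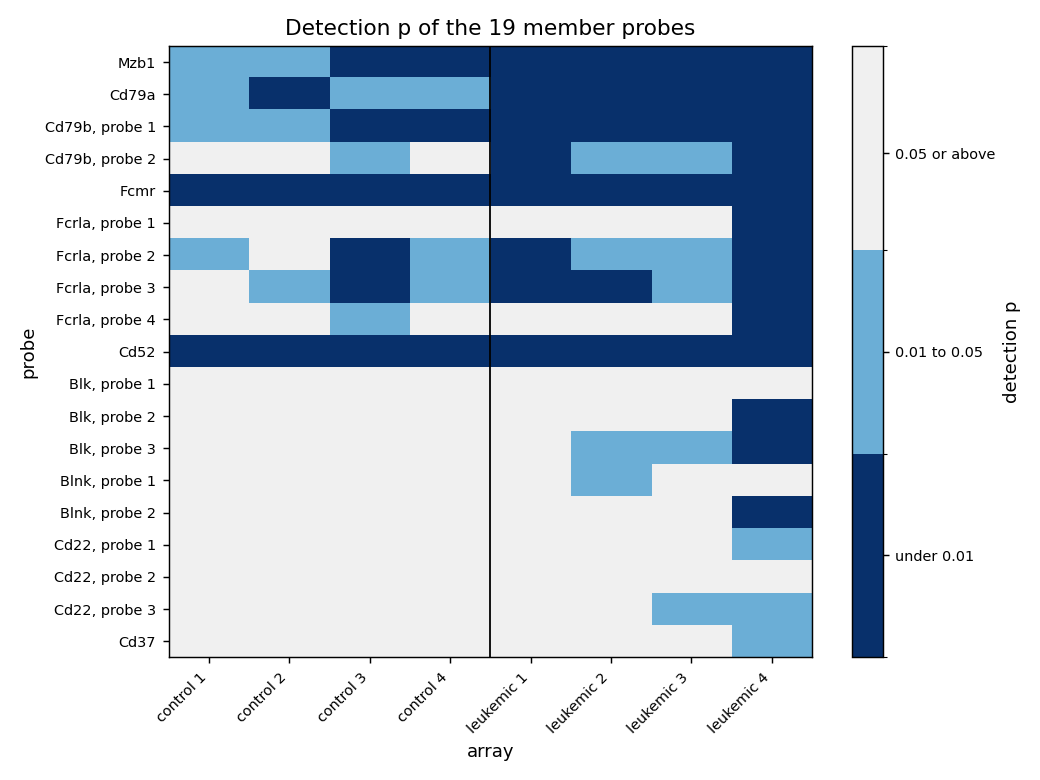
Detection p of each of the 19 probes (rows) on the 8 arrays (columns), in 3 classes shown by colour. The control arrays detect 6 to 9 probes and leukemic replicate 4 detects 16, and the probes of *Blk*, *Blnk*, *Cd22* and *Cd37* are pale on all 4 control arrays.

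Levels below are background-corrected, quantile-normalized signals on the log2 scale, each from the brightest probe of its gene. A difference is the leukemic mean minus the control mean on that scale, with the standard error of limma's fit, and n = 4 arrays per group throughout. Since the probes differ in how well they bind their target, no gene's level is set against another gene's. In bulk RNA, the number of cells that carry a transcript and the amount of it in each cell cannot be told apart.

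*Cd79a* and *Cd79b* encode the signalling chains of the receptor. *Cd79a* measured 5.62, 5.82, 5.59 and 5.51 on control replicates 1 to 4 and 6.16, 5.81, 6.40 and 9.40 on leukemic replicates 1 to 4. Leukemic replicates 1, 3 and 4 exceeded every control array, leukemic replicate 2 lay just below the highest control, and leukemic replicate 4 stood alone. The difference was 1.31 ± 0.63 (SE), or 2.48-fold, and 0.49 without leukemic replicate 4. *Cd79b* measured 5.78, 5.44, 6.57 and 6.18 in control co-cultures and 7.54, 7.03, 6.69 and 9.43 in leukemic co-cultures. Here the groups did not overlap, although the gap between leukemic replicate 3 and control replicate 3 was small. The difference was 1.68 ± 0.51 (SE), or 3.21-fold, and 1.10 without leukemic replicate 4. A second *Cd79b* probe, detected on 1 control array and on all 4 leukemic arrays, differed by 1.37, and by 0.65 without leukemic replicate 4.

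*Mzb1* encodes a chaperone of the endoplasmic reticulum that helps to assemble and secrete immunoglobulin in marginal zone B cells and plasma cells. Its level was 5.39, 5.47, 7.54 and 5.97 in control co-cultures and 8.31, 8.01, 6.35 and 11.30 in leukemic co-cultures. Control replicate 3 lay above leukemic replicate 3, so the groups overlapped, and the remaining leukemic arrays lay above all controls. The difference of 2.40 ± 0.87 (SE), or 5.28-fold, was the widest among the 10 genes, and it was 1.46 without leukemic replicate 4. In the deposited signal, before any normalization, leukemic replicate 4 read 3101 where the other 7 arrays read 67.4 to 339.

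A pair of members are relatives of the Fc receptors. *Fcmr*, the receptor for the constant part of IgM, measured 7.03, 7.0, 5.97 and 7.01 on the control arrays and 7.77, 7.59, 7.89 and 9.53 on the leukemic arrays. All leukemic arrays were above all controls, and control replicate 3 was the low one among the controls. The difference was 1.44 ± 0.41 (SE), or 2.72-fold, and 0.998 without leukemic replicate 4. *Fcrla*, an intracellular relative of the Fc receptors that binds immunoglobulin inside B cells, measured 4.79, 5.22, 6.22 and 5.28 in control co-cultures and 5.88, 5.92, 5.60 and 8.78 in leukemic co-cultures. Control replicate 3 exceeded leukemic replicates 1 to 3, and this probe was not detected on control replicate 1. The difference was 1.17 ± 0.62 (SE), or 2.25-fold, and 0.42 without leukemic replicate 4. Over the 4 *Fcrla* probes it ranged from 0.30 to 1.17, and without leukemic replicate 4 from −0.097 to 0.42.

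*Cd52* encodes a short surface glycoprotein of lymphocytes held by a lipid anchor. It measured 5.88, 5.87, 6.66 and 6.34 on the control arrays and 7.69, 6.87, 6.90 and 9.41 on the leukemic arrays. The groups did not overlap, and control replicate 3 was again the highest control. The difference was 1.53 ± 0.48 (SE), or 2.88-fold, and 0.96 without leukemic replicate 4.

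The dim genes included *Blk*, a kinase of the Src family, and *Blnk*, the adaptor that links the receptor to phospholipase C. *Blk* measured 4.50, 4.90, 4.83 and 4.81 in control co-cultures, where it was detected on no array, and 4.87, 5.14, 5.11 and 6.99 in leukemic co-cultures, where it was detected on 3. Its control level was thus only bounded, by 5.06, the mean of the lowest levels seen for a detected probe on the control arrays. Against this bound the leukemic mean of *Blk* was 1.38-fold higher, with the undetected leukemic replicate 1 taken at its measured level. This ratio is therefore not a strict minimum. Leukemic replicate 4 decided the ratio, since the measured difference of 0.76 became 0.28 without it. *Blnk* measured 4.57, 4.86, 4.81 and 4.96 on control arrays and 5.02, 4.76, 4.77 and 5.83 on leukemic arrays. This probe was detected on leukemic replicate 4 alone, and a second and dimmer one on leukemic replicate 2 alone. Against the bound the leukemic mean of *Blnk* was 1.02-fold higher. The undetected leukemic replicates 1 to 3 entered that mean at their measured levels, so this too is no strict minimum. Without leukemic replicate 4 the measured difference of 0.30 was 0.051.

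*Cd22*, an inhibitory lectin that binds sialic acid, and *Cd37*, a tetraspanin of the B cell membrane, gave no fold above their bound. *Cd22* measured 4.75, 4.69, 4.73 and 4.76 on the control arrays, all below detection, and 4.85, 4.72, 5.35 and 5.21 on the leukemic arrays, of which replicates 3 and 4 were detected. By this probe it was the one member with its highest level on leukemic replicate 3. A second *Cd22* probe was detected on leukemic replicate 4 alone, at 5.50 against 4.42 to 4.65 elsewhere, and the remaining probe was detected on no array, with a difference of −0.0058. *Cd37* measured 4.65, 4.58, 4.63 and 4.55 in control co-cultures and 4.52, 4.95, 4.64 and 5.30 in leukemic co-cultures, with detection on leukemic replicate 4 alone.

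**Figure D2:**
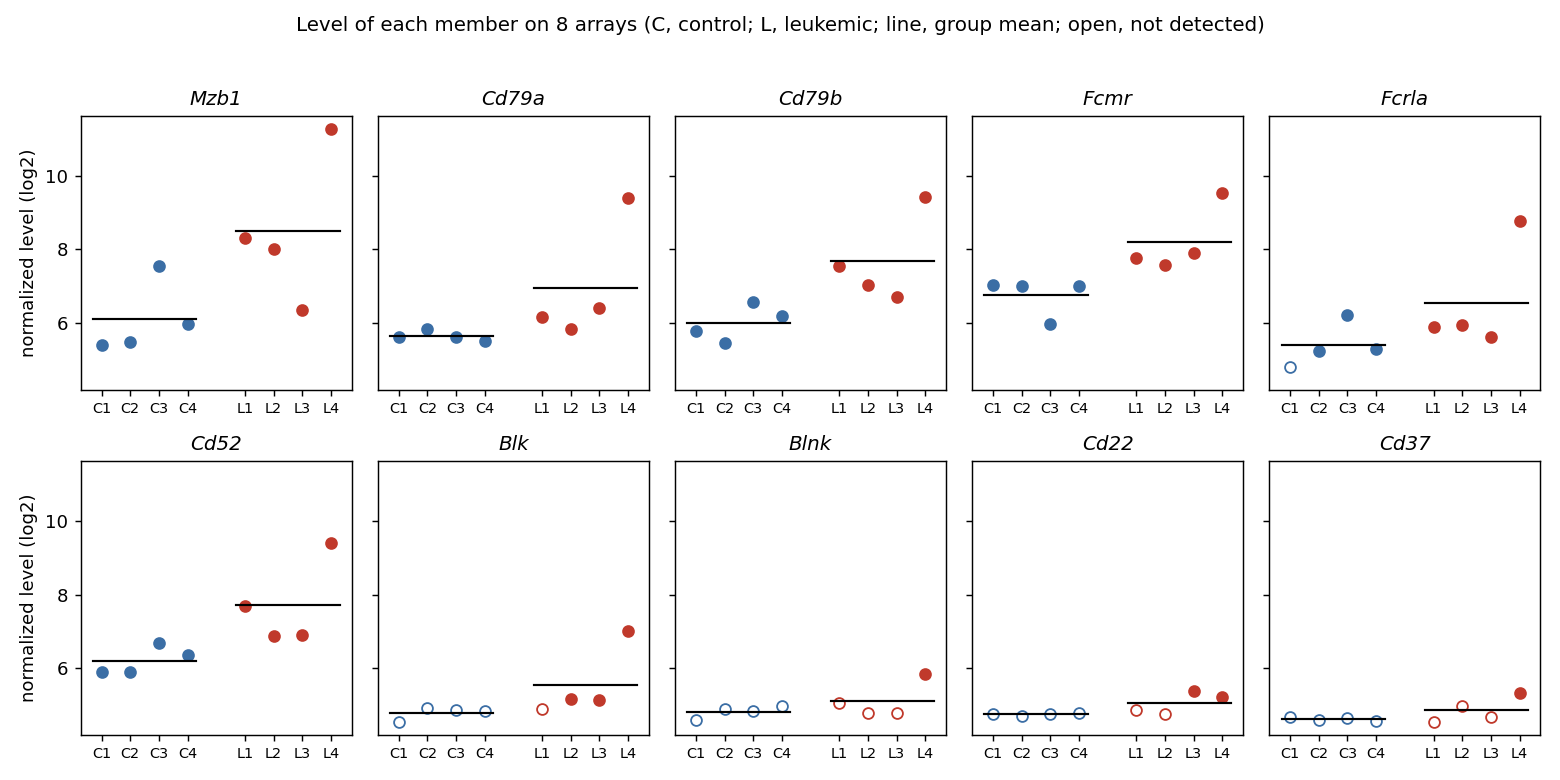
Normalized log2 level of the 10 genes on control (C1 to C4, blue) and leukemic (L1 to L4, red) arrays, with open points where the probe was not detected and a line at each group mean. L4 is the highest array in 9 of the 10 panels, and C3 is the highest control in the panels of *Mzb1*, *Cd79b*, *Fcrla* and *Cd52* and the lowest in that of *Fcmr*.

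Across the 10 genes all differences were positive, with a median of 1.24, where the median over all 9971 features was 0.0028. Without leukemic replicate 4 the median of the 10 was 0.46. By the brightest probe of each gene, leukemic replicate 4 was the highest array for 9 of the 10. Among the other leukemic arrays none was the lowest throughout, replicate 2 being lowest for 5 genes, replicate 3 for 3 and replicate 1 for 2. For 3 of the 10 genes, *Cd79b*, *Fcmr* and *Cd52*, there was no overlap between the groups, which was so in the same direction for 2.21% of the features tested.

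By the rank product, a test on the ranks of the fold changes between all 16 pairs of a leukemic and a control array, 37 of 9971 features (0.371%) were called higher and 2 (0.0201%) lower in leukemic co-cultures at q below 0.05. All of the 6 members that passed the detection filter were among the 37. Since the members were chosen on this contrast, the count only describes them. It was 4 without background correction, where *Cd79a* and *Fcrla* were not called, 5 with median scaling, where *Fcrla* was not called, and 1 on the authors' normalized matrix, which called *Mzb1*. Limma with Benjamini-Hochberg adjustment called 0 features (0%), with 756 at an unadjusted p below 0.05, and the smallest adjusted p over all features was 0.639. Without leukemic replicate 4 the rank product called 6 features higher, of which 4 were *Mzb1*, *Cd79b*, *Fcmr* and *Cd52*, and *Cd79a* and *Fcrla* were no longer called. Leaving out control replicate 1 or 4 or leukemic replicate 1 gave the same 4 members, and *Cd79a* or *Fcrla* was lost without control replicate 3 or 2 and without leukemic replicate 3 or 2.

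**Figure D3:**
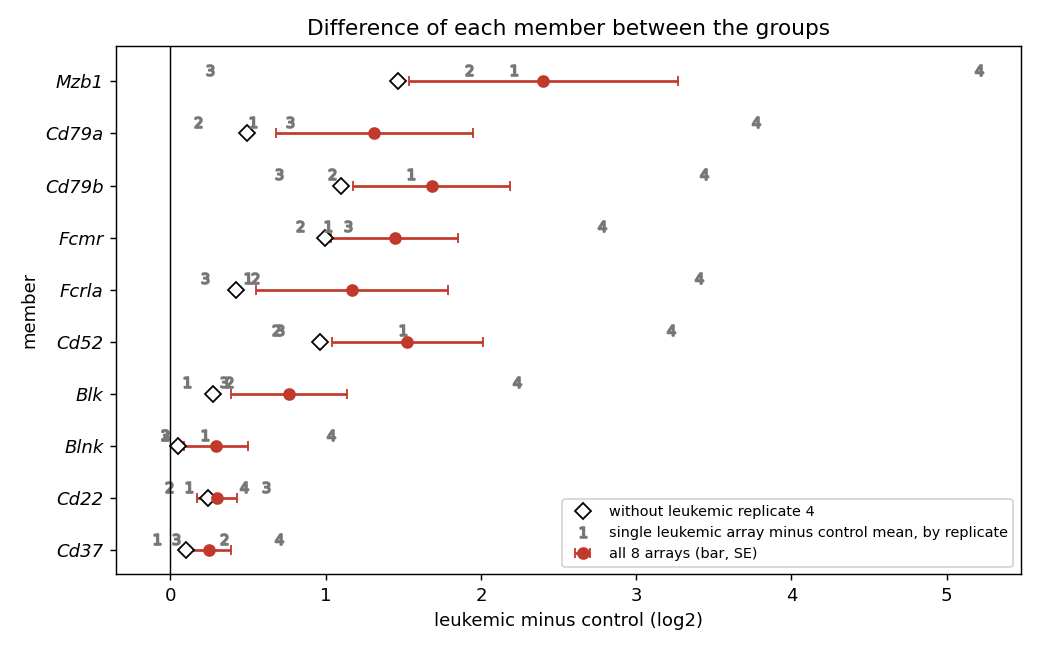
Leukemic minus control difference (log2) of each gene over all 8 arrays (red, with the SE), without leukemic replicate 4 (open diamonds), and for each leukemic array against the control mean (grey replicate numbers). The numeral 4 lies furthest to the right in 9 of the 10 rows, and the diamonds range from 0.051 for *Blnk* to 1.46 for *Mzb1*.

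The rest of the B lineage was followed through 139 other genes, of which 113 had a probe under their name and 47 passed the detection filter. Of these 47, 1 was called higher, none lower, and 31 were positive with a median difference of 0.12. The called gene was *H2-Ab1*, a class II chain found on B cells and on other antigen-presenting cells. Without the class II genes and the leukemia markers, 0 of 38 tested genes were called by the rank product, at a background of 0.371%, and limma called 0 as well. Their median difference was 0.061. Only 38 of the 94 such genes on the array were tested. Some of these were bright in both groups, such as *Cd81* and *Hsp90b1*, with control means of 14.23 and 13.85. *Pou2af1*, *Irf4*, *Ly86* and *Btk* did not pass the filter and were not tested. The 0 of 38 and the median therefore cover only genes detected on at least 4 of the 8 arrays.

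Among the receptor's own chains and coreceptors, 18 genes were listed and 8 matched a probe. No probe was matched to *Ighm*, *Ighd* or *Igkc*, and these were not analysed here. *Cd81*, a coreceptor that many cell types make, was tested and measured 14.05 to 14.34 on the 8 arrays, with a difference of −0.032 ± 0.094 (SE). Of the signalling genes, 13 of 26 were tested, none was called and 10 were positive. The widest differences among them were those of *Prkcb*, the protein kinase C that acts below the receptor, at 0.79 ± 0.37 (SE) and q = 0.276 by the rank product, and *Rasgrp3*, an activator of Ras, at 0.77 ± 0.57 (SE) and q = 0.355. For both genes leukemic replicate 4 was the highest array, at 7.17 and 8.42, and without it the differences were 0.34 and 0.098. *Vav3* went the other way, at −0.59 ± 0.49 (SE). It read 6.01 on leukemic replicate 4 and 8.04 to 8.78 on the other arrays, and without replicate 4 its difference was 0.0051.

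Of the B lineage transcription factors, 5 of 18 were tested and none was called. Their differences were positive for 3, with a median of 0.12, or −0.014 without leukemic replicate 4. *Ebf1*, whose motif was searched for above, measured 5.78 to 6.33 on the 8 arrays, with a difference of −0.17 ± 0.15 (SE). *Pax5* and *Spib*, which hold B cell identity, were detected on no array. Of the 38 surface and cytokine receptors, 6 were tested, none was called, and *Ms4a1*, which encodes CD20, was detected on no array. The 12 tested genes of plasma cells and of immunoglobulin secretion, a list that *Mzb1* would fit by its function, had a median difference of 0.056, and *Jchain* and *Prdm1* were detected on no array. *Xbp1*, the transcription factor of the secretory program, was bright on all 8 arrays at 12.63 to 13.10. Of the leukemia markers 4 of 13 were tested and none was called, and *Cd5*, *Zap70*, *Ror1* and the mouse *Tcl1* were detected on no array. That *Tcl1* probe is named for the mouse gene and was not shown to read the human transgene.

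All 6 class II genes that were tested had a positive difference, with a median of 0.79, or 0.34 without leukemic replicate 4. *H2-Ab1* measured 6.51, 6.64, 6.48 and 6.90 in control co-cultures and 7.40, 6.64, 7.56 and 9.48 in leukemic co-cultures. Leukemic replicate 2 lay below the highest control, and leukemic replicate 4 was far above all. It rose by 1.14 ± 0.47 (SE, q = 0.0312 by the rank product), which was 0.57 and not called without leukemic replicate 4. The call was also lost without control replicate 1, 2 or 3 and without leukemic replicate 1 or 3. *Cd74*, the invariant chain, differed by 0.73 ± 0.50 (SE, q = 0.265), and by 0.16 without leukemic replicate 4.

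Some probes of other B lineage genes that were below the filter were detected on leukemic replicate 4. Of the 157 probes for B lineage genes other than class II genes and leukemia markers, 13 probes of 11 genes (8.28%) were detected on leukemic replicate 4 and on no other array, where 1.21% of all probes were. Among them, *Ly86*, which encodes a partner of a Toll-like receptor relative on B cells, read 7.17 there and 4.53 to 4.87 on the other 7 arrays. *Btk*, a kinase below the receptor, read 6.12 there and 4.54 to 4.96 elsewhere. Of the 11 genes, *Ifitm1* and *Pik3cd* also had a probe that passed the filter. That probe of *Ifitm1* was lowest on leukemic replicate 4, at 6.73 against 7.25 to 8.29 elsewhere, and that of *Pik3cd* was highest there, at 5.97. Other B lineage genes were also detected on further arrays and lie outside that count. *Pou2af1*, a B cell coactivator that works with the Oct factors, was detected on 2 leukemic arrays and read 8.11 on replicate 4 and 4.66 to 5.67 on the other 7 arrays. These genes were singled out after their values were seen.

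**Figure D4:**
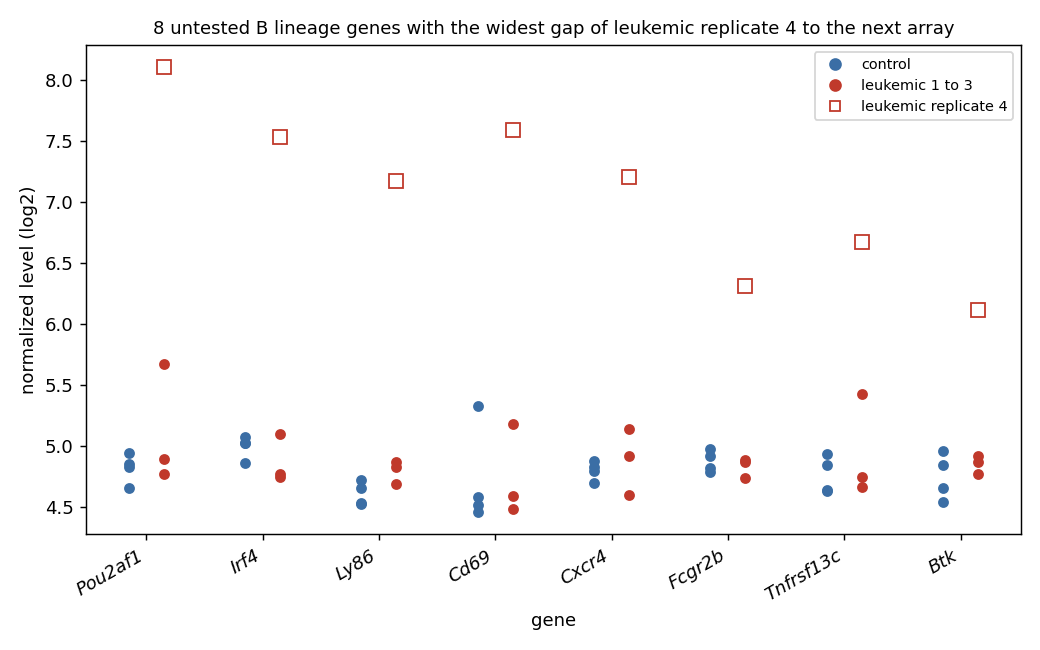
Normalized log2 level of 8 B lineage genes that did not pass the detection filter, chosen for the widest gap between leukemic replicate 4 (open squares) and the next array, with the control arrays in blue and leukemic replicates 1 to 3 in red. *Pou2af1* reads 8.11 on leukemic replicate 4 and at most 5.67 on the other arrays.

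Markers of other cells were measured on the same arrays. The normalized levels of the members' probes, summed on the linear scale, were 692 to 956 on the control arrays, 1054 to 1482 on leukemic replicates 1 to 3 and 7325 on leukemic replicate 4. *Mzb1* made up 6.04% to 34.5% of this sum, which was 651 to 770, 953 to 1165 and 4801 without it. Undetected probes entered this sum and those below at their measured level. Part of each sum is therefore background, and ratios between sums are not ratios of transcript. The class II sum was 1036 to 1507, 1110 to 1693 and 5710 in the same order, and that of the pan-leukocyte markers 5950 to 7276, 5481 to 7339 and 9822. *Cd74* made up 31.0% to 43.9% of the class II sum, which was 634 to 846, 760 to 1050 and 3260 without it. *Arhgdib* made up 50.8% to 61.0% of the pan-leukocyte sum. Without *Arhgdib* that sum was 2437 to 3540, 2628.5 to 3293 and 4488. The sum of the myeloid markers was 1280 to 1613, 1529 to 2006 and 3568, with *Lyz1* and *Lyz2*, the lysozyme genes, as its called genes, while *Itgam*, *S100a8*, *S100a9* and *Adgre1* were detected on no array. *Lyz1* made up 21.8% to 49.1% of the myeloid sum, which was 1001 to 1142, 1083 to 1228 and 1815 without it. The T and NK cell sum was lower on leukemic replicate 4, with 11868 to 14262, 11419 to 14060 and 7964, and *Cd3d*, *Cd3e* and *Cd8a* were detected on no array. *Thy1*, which the stromal list also holds, made up 80.2% to 89.1% of this sum. The endothelial sum was 1638 to 1952, 1488 to 1969 and 830, with *Cdh5* and *Tie1* at no detection, and *Flt1* made up 50.2% to 76.8% of it. Without *Flt1* it was 432 to 453, 457 to 496 and 414. The erythroid and platelet sum was 464 to 573, 569 to 591 and 425. *Ptprc*, which encodes the common leukocyte antigen, was detected on no array. The part of carried-over B cells or of other cells in the members' levels was not tested.

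Of the pan-leukocyte markers 8 of 16 were tested and 1 was called, and of the myeloid markers 4 of 16 were tested and 2 were called. *Laptm5*, a lysosomal membrane protein of blood cells, rose by 1.23 ± 0.51 (SE, q = 0.0264 by the rank product), and was 7.31, 6.86, 7.55 and 7.73 in control co-cultures and 7.63, 8.06, 8.23 and 10.44 in leukemic co-cultures. Its difference without leukemic replicate 4 was 0.61, and it was not called. *Lyz2* rose by 1.11 ± 0.40 (SE, q = 0.02) and *Lyz1* by 1.07 ± 0.39 (SE, q = 0.0244). Without leukemic replicate 4 these were 0.70 and 0.66, and neither was called. *Lyz2* was also lost without control replicate 4 or leukemic replicate 1, *Lyz1* without control replicate 2 or 4 or leukemic replicate 1 or 2, and *Laptm5* without control replicate 1 or 2 or leukemic replicate 2 or 3. No gene was called in the T and NK cell, erythroid and platelet, endothelial or stromal lists, of which 4, 4, 5 and 17 genes were tested.

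The profiles of the 6 tested members over the 8 arrays were then set against those of all other named features. Each gene's level was taken minus its own mean, and likeness was the mean absolute distance to the median profile of the 6 members, so that 0 is an identical course. *Cd52* and *Cd79b* lay closest to that median, at 0.11 and 0.13, followed by *Fcrla* at 0.23, *Cd79a* at 0.39 and *Fcmr* at 0.49, and *Mzb1* lay farthest at 0.78. The median over the 9168 other named features was 0.806. This distance depends on the size of the changes as well as on their course. *Mzb1* read 4.01 above its own mean on leukemic replicate 4, where the median profile read 2.71. On control replicate 1 these were −1.90 and −1.06. A wider swing thus adds to its distance, and a feature that hardly changes lies far too. The closeness of 0.78 and 0.806 is therefore not read as a like course. The 8 nearest other genes were *Cyp4f18*, a cytochrome P450 of leukocytes, at 0.238, *Tnxb*, a matrix glycoprotein, at 0.273, *Serpinb6b* at 0.308, *Tmem108* at 0.309, *Bex4* at 0.325, *Cd55*, a complement regulator, at 0.327, *Laptm5* at 0.333 and *Ogn*, a small matrix proteoglycan, at 0.334. Of these 8, *Tnxb* and *Ogn* are genes of connective tissue. The points share 8 arrays, and the high value of leukemic replicate 4 enters each of these distances. The 6 members also formed the median they were measured against, and the other features did not. The members' distances are thus not comparable with those of the other features.

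**Figure D5:**
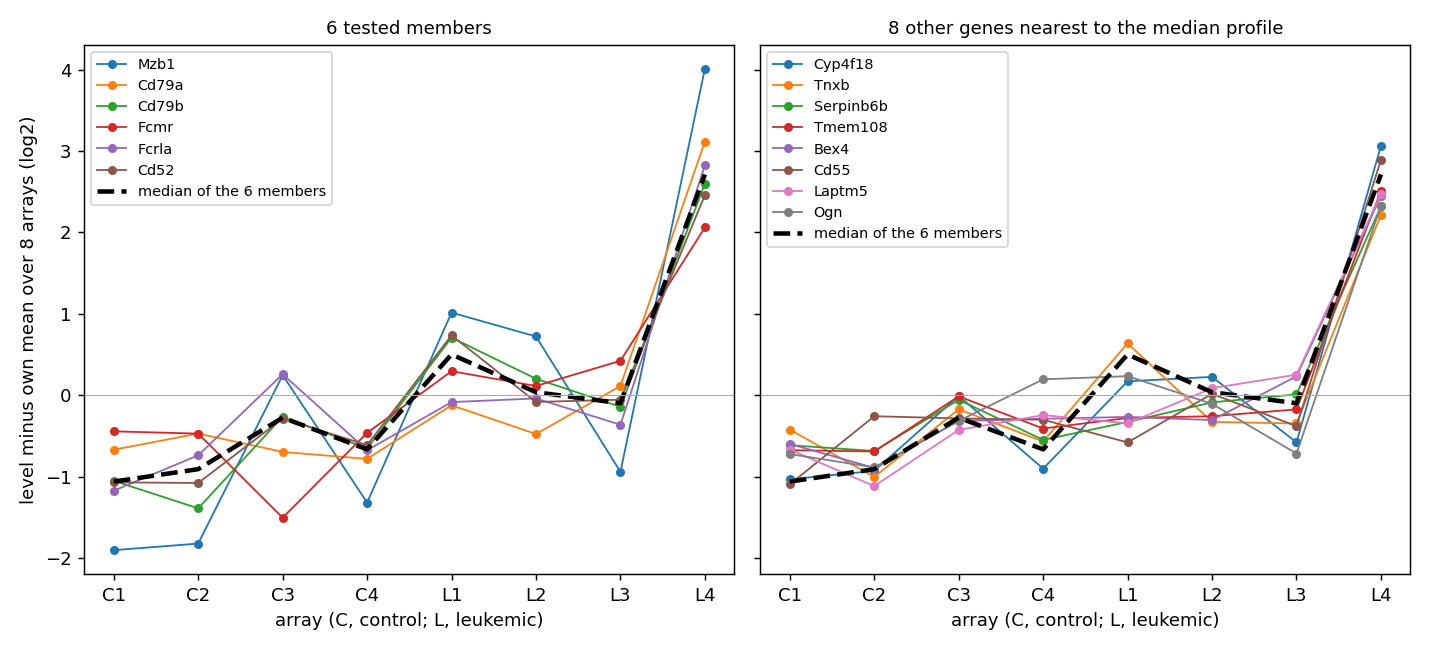
Log2 level minus the gene's own mean over the 8 arrays, for the 6 tested members (left) and the 8 other genes nearest to their median profile (right), with that median dashed. The median is −1.06 on control replicate 1 and 2.71 on leukemic replicate 4, and *Fcmr* leaves it downward on control replicate 3.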

How the data were processed

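The study measured total RNA of sorted stroma on 8 Illumina bead arrays, 4 per group, with groups and replicate numbers taken from the sample titles. The authors deposited, per probe and array, a non-normalized signal intensity and a detection p-value, and a matrix of log2 values that their methods give as normalized with lumi. The array number limits the precision, and whether replicates were separate cultures or animals is not given in the labels, so the p-values reflect array-to-array spread that may be technical. All 16 value columns of the signal table were mapped to samples and 0 were left out. Signals were corrected and quantile-normalized with neqc of limma (version 3.58.1, R 4.3.3, offset 16). Probes were kept when detected (p below 0.05) on at least 4 of 8 arrays (13732 kept, 11965 removed), and the brightest probe stood for a symbol, leaving 9971 features. Symbols came from GEO's platform annotation and can be old, with 23978 of 25697 probes carrying 1 symbol and 1719 left unnamed here. The study's methods name a permutation-based method of the RankProd package. Here the groups were compared with a rank product written anew, in its unpaired 2-class form (16 array pairs, 100 permutations within arrays, q below 0.05 in each direction), and limma with Benjamini-Hochberg adjustment was the alternative. Fold changes and standard errors are limma's. The code was tested on simulated data with 200 changed features. There all features had the same spread and the leukemic arrays were shifted evenly. That test therefore does not bear on differences that rest largely on a single array. Of the lists, the text names all 10 members, list genes past the threshold and some of the widest differences per list, and the 8 named features nearest to the members' median profile. Members, lists and motifs were chosen with earlier results of these data known. For *Lyz1* and *Lyz2*, which are near copies, and for the class II genes, probes may read more than 1 gene. Alternatives covered the background correction, normalization, detection filter, probe summary, the authors' matrix, random draws, the replicate block and each array left out.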

Additional observations from a re-analysis of the deposited data

Results flagged for a closer look

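Within the 4 arrays of a group, an array was singled out when its gap to the nearest other array, divided by the range of the group, exceeded Dixon's critical value for 4 samples. Of 20 such groups, 5 held such an array. The genes were chosen for a difference between the co-cultures, so this count is a description and is not set against a chance rate. For *Cd79a*, leukemic replicate 4 read 9.40 and the next leukemic array 6.40. For *Fcrla* it read 8.78 against 5.92, for *Fcmr* 9.53 against 7.89, and for *Blk*, which was below detection on 5 arrays, 6.99 against 5.14. The fifth case was a control array that was low, since *Fcmr* read 5.97 on control replicate 3 and 7.0 on the next control array, while the same array was the highest control for *Mzb1*, *Cd79b*, *Fcrla* and *Cd52*. Of the 5 cases, 4 rest on leukemic replicate 4 and are not independent of one another.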

How the results depend on the processing

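Read at the brightest probe of each gene, the 10 members kept a positive difference in all 110 recomputations. They were chosen for a difference between these groups, and the settings share the same arrays, so this is a description. Their median of 1.24 became 0.91 without background correction and 0.38 in the authors' matrix, where *Mzb1* alone of the members was called. Without each array in turn the median ranged from 0.46 to 1.51, the features called higher from 6 to 41 and lower from 0 to 15 (37 and 2 with all arrays), and the other B lineage genes called higher from 0 to 1. Limma called 0 higher and 0 lower and no other B lineage gene (0). Without background correction the rank product called 24 higher, 1 lower and 0 other B lineage genes, and on the authors' matrix 10, 7 and 0. Lower calls were 9 without a detection filter, 1 with detection on all 8 arrays and 0 with every probe as its own feature. Random draws added after seeing the data gave 27 and 38 higher and 2 and 2 lower calls. The 6 tested members and *H2-Ab1* were called in both of these. Each other setting had 1 set of draws, so a step from 2 lower calls to 1 or 0 is not read as an effect of the setting. Nor is a count of higher calls between 27 and 38. A call lost with an array left out also rests on 1 set of draws. With the replicate block the rank product called 43 higher and 21 lower, and limma with the replicate block 0 and 0, and 0 other B lineage genes. Deviations of same-numbered arrays correlated at 0.25, 0.30, 0.19 and 0.031, and those of differently numbered arrays at −0.28 to 0.19. These values do not settle whether the numbers pair the samples, and the main comparison was unpaired. At a detection p below 0.01, the member probes detected summed to 15 over control arrays (28 at 0.05) and to 32 over leukemic arrays (44 at 0.05). The causes were not tested. Levels near background limit *Blk*, *Blnk*, *Cd22* and *Cd37*.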
